A study of Saccharomyces cerevisiae with 36 samples.

Results

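The transcripts described here encode 46 proteins of the small-subunit processome and the box C/D small nucleolar ribonucleoproteins of budding yeast, out of 6697 genes in the count table. They were chosen by gene name and identifier, such as SOF1 (YLL011W), UTP10 (YJL109C) and NOP1 (YDL014W), and not by any measured value. Earlier results of these data were known when they were chosen. By role they were 7 subunits of the UtpA (t-UTP) complex, 6 of the UtpB complex, 2 of UtpC, the 3 proteins of the Mpp10 complex, Bms1 with Rcl1, 13 single factors, 7 RNA helicases, 5 box C/D or U3 proteins and the nucleolin-like NSR1. All 46 passed the filter on low counts in both models, and the lowest count of any member in any library was 10.

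The libraries came from Saccharomyces cerevisiae of the W303 Ade+ background. One strain carried Ded1-mCherry (WT), a fluorescent tag on the RNA helicase Ded1, and the other carried the same tag on the allele Ded1_IDRm (IDRm), so that the WT cells also held a tagged Ded1. Cells were grown at 30 °C and held for 10 min at 30, 40 or 42 °C. RNA was sequenced from the whole cell (total), from the insoluble fraction (pellet) and from the soluble fraction, which gave 18 groups of 2 libraries. Each strain was started as duplicate cultures, and each main culture was divided over the 3 temperatures, so that libraries of different temperatures and fractions can share a culture. The comparisons ask how 10 min of heat changed these transcripts in amount and in solubility, and whether the Ded1_IDRm allele altered either change.

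The small-subunit processome is the nucleolar particle that assembles on the newly made ribosomal RNA precursor and folds, cuts and modifies it on the way to the 40S subunit. UtpA binds the precursor first, UtpB and the U3 ribonucleoprotein follow, and helicases and single factors then join. Box C/D proteins form the core of U3 and of the small nucleolar RNAs that guide ribose methylation of ribosomal RNA. In yeast the genes of this machinery belong to the ribosome biogenesis regulon, whose promoters often carry the PAC and RRPE elements and which is turned down in many stresses.

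The promoters of the members are shown because the transcripts moved together. A window from 250 bases before to 50 bases after the coding start was read from the RefSeq R64 genome for each member and searched on both strands for PAC (letters GATGAG) and RRPE (letters AAAAATTT). The 6 windows printed here include those of NSR1, SOF1 and DHR2, which are described below for their falls. KRR1 and RRP7 are shown because they kept or raised their level in total RNA of heated WT cells. EMG1 is shown because it has neither motif. Letters of a match on either strand are in capitals, and overlapping matches run together.
NSR1 promoter, chrVII:807607-807906, minus strand: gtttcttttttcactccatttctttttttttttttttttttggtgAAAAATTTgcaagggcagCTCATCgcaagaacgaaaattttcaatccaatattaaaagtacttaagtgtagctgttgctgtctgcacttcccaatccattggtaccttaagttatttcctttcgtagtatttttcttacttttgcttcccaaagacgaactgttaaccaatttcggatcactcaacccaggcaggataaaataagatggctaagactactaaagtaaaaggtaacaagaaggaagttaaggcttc
SOF1 promoter, chrXII:127273-127572, plus strand: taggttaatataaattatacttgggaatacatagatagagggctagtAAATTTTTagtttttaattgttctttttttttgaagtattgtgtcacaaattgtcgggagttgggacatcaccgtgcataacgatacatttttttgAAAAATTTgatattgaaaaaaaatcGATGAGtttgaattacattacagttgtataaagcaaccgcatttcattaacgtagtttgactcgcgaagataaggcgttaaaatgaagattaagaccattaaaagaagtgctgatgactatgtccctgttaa
DHR2 promoter, chrXI:288595-288894, plus strand: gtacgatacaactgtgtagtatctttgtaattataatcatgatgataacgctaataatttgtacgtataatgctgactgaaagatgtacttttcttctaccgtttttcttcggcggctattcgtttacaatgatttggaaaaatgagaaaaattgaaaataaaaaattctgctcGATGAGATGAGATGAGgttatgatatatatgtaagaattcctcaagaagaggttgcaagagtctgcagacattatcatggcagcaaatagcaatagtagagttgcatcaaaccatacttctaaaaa
KRR1 promoter, chrIII:23330-23629, minus strand: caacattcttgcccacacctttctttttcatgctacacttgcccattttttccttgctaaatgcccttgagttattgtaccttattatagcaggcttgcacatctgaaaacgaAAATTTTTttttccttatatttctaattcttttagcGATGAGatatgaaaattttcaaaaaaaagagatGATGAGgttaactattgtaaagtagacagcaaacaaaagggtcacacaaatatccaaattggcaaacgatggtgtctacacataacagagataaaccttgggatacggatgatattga
RRP7 promoter, chrIII:65519-65818, minus strand: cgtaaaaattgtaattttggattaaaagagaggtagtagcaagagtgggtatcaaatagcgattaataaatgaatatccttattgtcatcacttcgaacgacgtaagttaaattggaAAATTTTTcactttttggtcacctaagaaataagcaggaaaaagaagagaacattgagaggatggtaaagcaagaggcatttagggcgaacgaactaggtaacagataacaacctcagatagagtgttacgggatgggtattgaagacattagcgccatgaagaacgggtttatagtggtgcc
EMG1 promoter, chrXII:523382-523681, plus strand: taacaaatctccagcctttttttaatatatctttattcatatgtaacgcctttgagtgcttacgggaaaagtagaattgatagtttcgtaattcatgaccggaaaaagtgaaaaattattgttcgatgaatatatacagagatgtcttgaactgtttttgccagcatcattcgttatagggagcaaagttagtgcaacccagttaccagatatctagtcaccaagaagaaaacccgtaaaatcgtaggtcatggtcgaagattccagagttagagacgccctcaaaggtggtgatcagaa
PAC letters occurred in 41 of the 46 member windows (89.1%) and in 20.4% of 6001 windows of all protein-coding genes. RRPE letters occurred in 38 member windows (82.6%), against 14.1% of all windows, and both motifs in 35 (76.1%), against 5.63%. In the 200 bases before the start alone the member shares were 82.6% for PAC and 78.3% for RRPE. The shares over all genes in that narrower window are not given here. The longer PAC form GCGATGAG was found in 54.3% of member windows and 3.93% of all. Only UTP22 and EMG1 of the 46 had neither in this window. DHR2 held 3 overlapping PAC matches and no RRPE, and RRP7 held an RRPE and no PAC. KRR1, which was not lower in total RNA of heated WT cells, held both motifs. In WT total RNA at 40 against 30 °C the median log2 change was -2.51 for the 35 members with both motifs. It was -2.50 for the 2 with neither, -2.27 for the 6 with PAC only and -1.98 for the 3 with RRPE only. Whether the motifs of a member go with its fall was not tested. The matches lay at a median of 109 bases before the coding start for PAC and 134 for RRPE. A match describes letters and not a bound site.

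**Figure D1:**
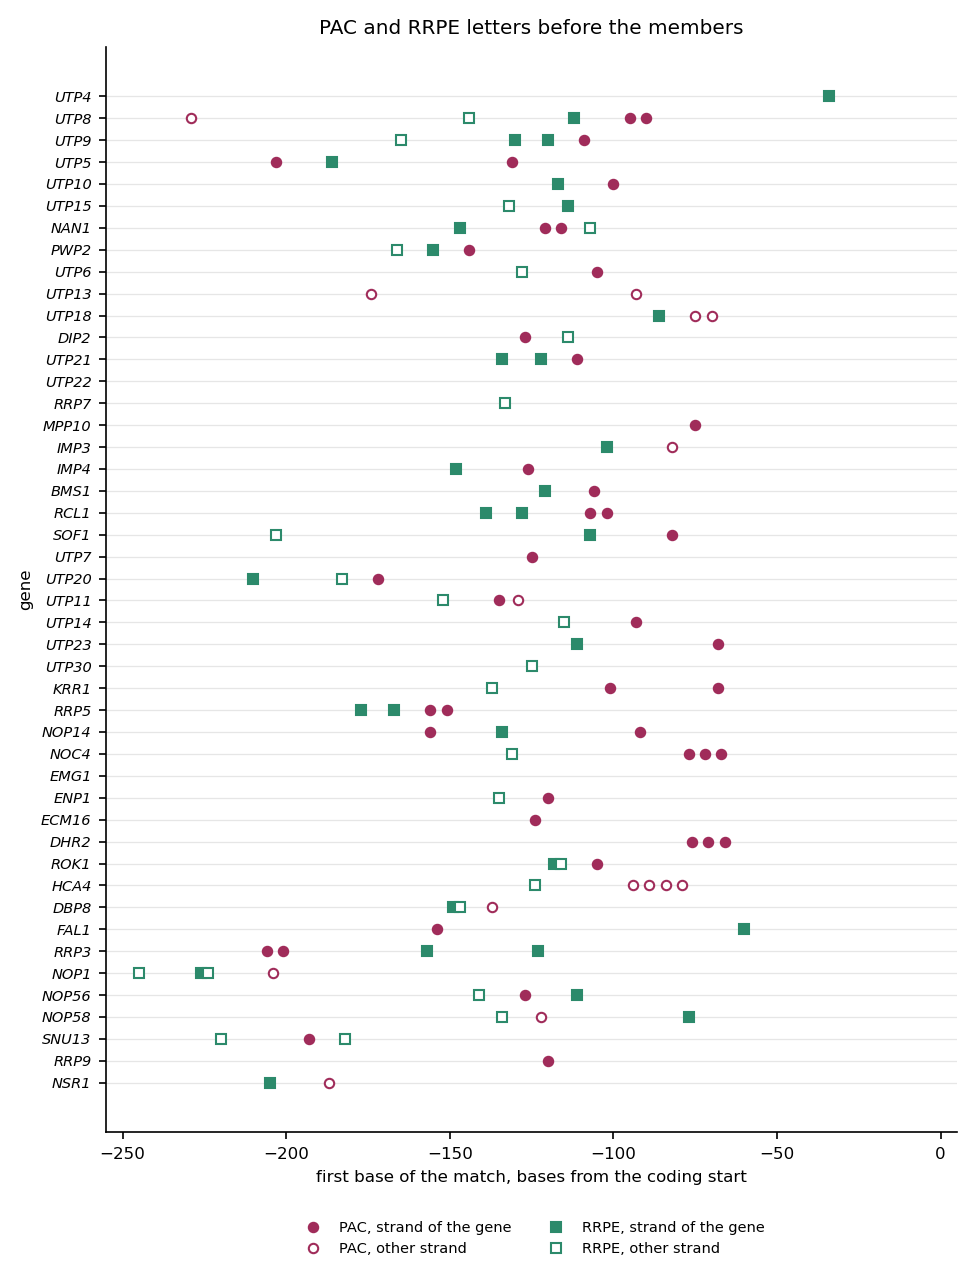
Positions of PAC (circles) and RRPE (squares) letters before the coding start of each member, in bases on the x axis, with filled symbols for the strand of the gene and open symbols for the other strand. Most members have a PAC match between 66 and 229 bases before the start, and the rows of UTP22 and EMG1 are empty.

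Library totals ran from 4934241 to 13730247 counts. The Pearson correlation of replicates over log2 levels ran from 0.970 (soluble RNA of WT at 42 °C) to 0.997. Levels are given as CPM, the read count of a gene scaled to the TMM-corrected size of its library. A change counts as called, or as a rise or fall, where the edgeR quasi-likelihood test gave an adjusted p (Benjamini-Hochberg) below 0.05. Each log2 fold change is followed by ± its standard error. DED1 was lower in IDRm than in WT total RNA at 30 °C, by a log2 difference of -0.67 ± 0.17, which was called. The difference was -0.68 ± 0.17 at 40 °C, also called, and -0.43 ± 0.17 at 42 °C, not called. The fractions at 30 °C did not show it. DED1 was at 1474 and 1638 CPM in IDRm pellets against 1431 and 1419 CPM in WT pellets. In soluble RNA it was at 1298 and 1222 CPM in IDRm and 1111 and 1227 CPM in WT. The heat shock disaggregase HSP104 rose by 5.04 ± 0.16 in WT and 5.13 ± 0.16 in IDRm at 40 °C on the log2 scale. All libraries were scaled within themselves, so each value is relative to the other transcripts of that library, and fewer molecules per cell and a larger pool of other transcripts cannot be told apart.

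At 40 °C the machinery fell almost as a whole in WT cells. Of the 46 members 44 were called lower and 1 higher, with a median log2 change of -2.46, while 69.7% of the 6090 genes tested were called, 37.1% higher and 32.6% lower, and their median change was 0.07. Together the members made up 0.907% and 1.31% of the counts of the 2 WT libraries at 30 °C, and 0.255% and 0.282% at 40 °C. Of the 44 falls, 39 were at least 2-fold and 10 at least 8-fold, and the share of all genes with such falls was not counted. In single libraries, 43 members were lower in both 40 °C libraries than in either 30 °C library, as were 38.9% of all genes tested.

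NSR1 (YGR159C, chromosome VII, 806412 to 807656), a nucleolar protein needed for pre-ribosomal RNA processing, changed most. Its level in WT was 316 and 402 CPM at 30 °C, 5.88 and 7.39 CPM at 40 °C, and 145 and 145 CPM at 42 °C. The temperatures did not overlap, 40 °C was the lowest and 42 °C lay between. The log2 change at 40 °C was -5.75 ± 0.37 (edgeR adjusted p = 8.95e-08). At 30 °C it was the member with the highest level per length in WT, at 288 CPM per kb of coding sequence, while UTP7 was the lowest at 16.3 CPM per kb. At 40 °C KRR1 was the highest at 128 CPM per kb and UTP6 the lowest at 2.41.

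**Figure D2:**
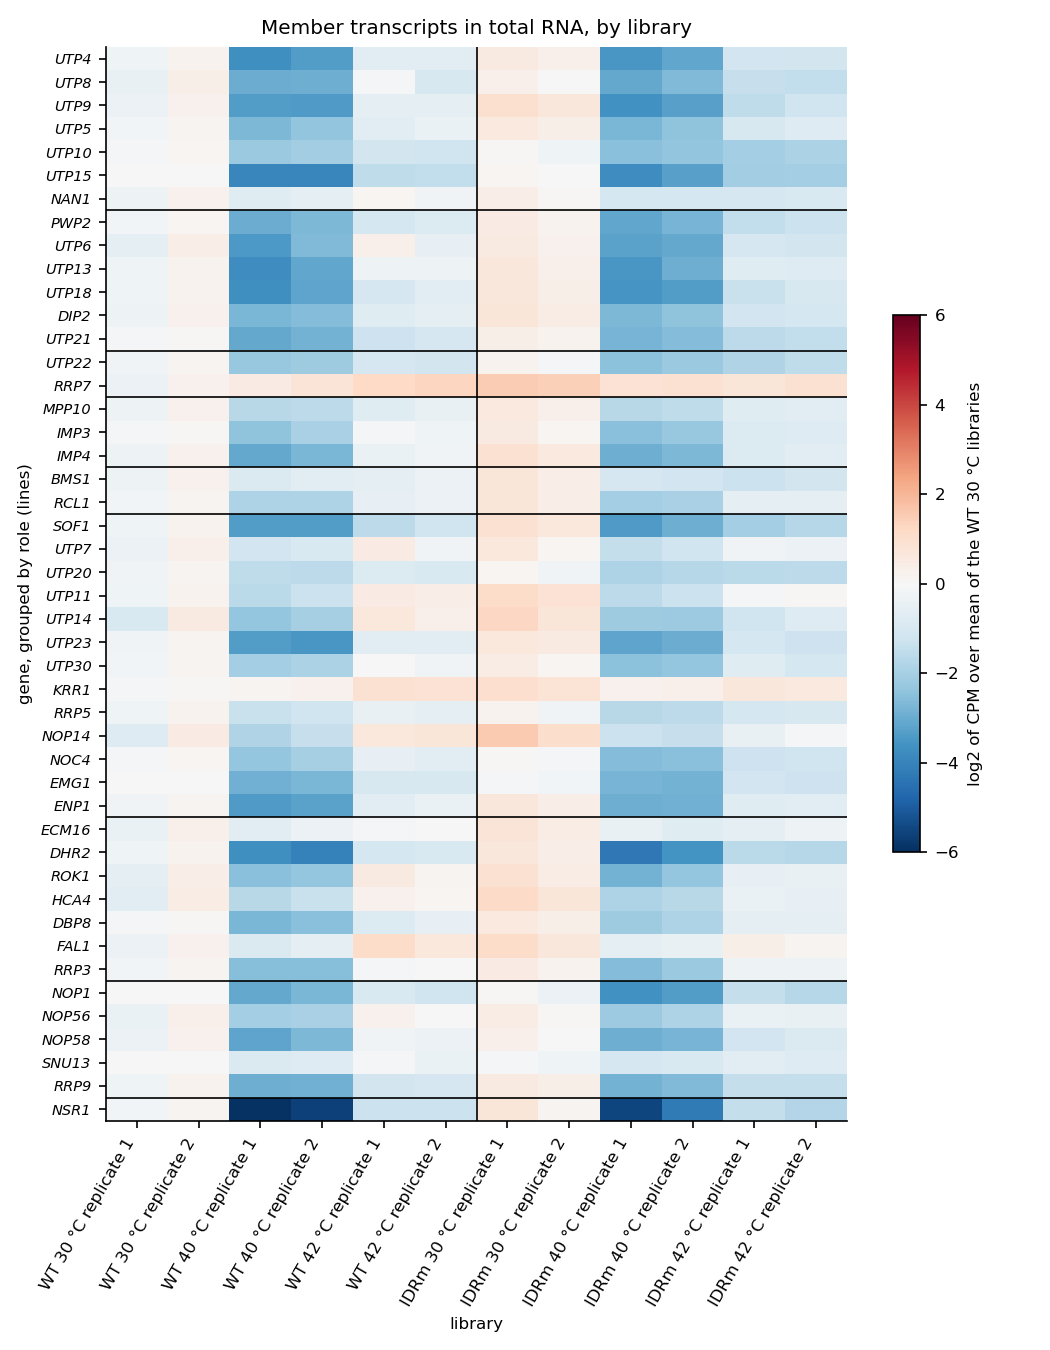
Log2 of the CPM of each member in each of the 12 total RNA libraries over its mean in the WT 30 °C libraries (columns are libraries, rows are genes grouped by role, blue is lower and red is higher). The 40 °C columns of both strains are blue for nearly all rows, the 42 °C columns are paler, and RRP7 and KRR1 are on the red side in the heated WT libraries.

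The UtpA genes, whose products reach the precursor first, all fell at 40 °C in WT. Their log2 changes ran from -3.92 ± 0.15 for UTP15 to -0.62 ± 0.17 for NAN1, which encodes the subunit also known as Utp17. UTP15 (YMR093W) was measured at 192 and 195 CPM at 30 °C and 12.7 and 12.8 CPM at 40 °C, so its groups lay far apart. UTP10, the largest UtpA subunit, went from 791 and 934 CPM to 187 and 205 CPM, a change of -2.14 ± 0.14. NAN1 was not called without WT 30 °C replicate 2 (-0.33). All 6 UtpB genes fell as well, within a narrow range of -3.37 to -2.68.

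The 2 UtpC genes, whose products join casein kinase 2 in a complex, separated. UTP22 fell by 2.21 ± 0.16 on the log2 scale, and RRP7 was the member called higher. RRP7 stood at 43.6 and 66.1 CPM at 30 °C and at 78.1 and 92.7 CPM at 40 °C, without overlap, for a change of 0.63 ± 0.16 (edgeR adjusted p = 0.00216). The change was 0.34 without WT 30 °C replicate 1 and 0.95 without replicate 2. The WT fractions did not show this rise. In pellets RRP7 was at 77.3 and 81.5 CPM at 30 °C and 43.7 and 53.6 CPM at 40 °C. In soluble RNA it was at 179 and 173 CPM at 30 °C and 123 and 131 CPM at 40 °C. The catalytic and regulatory subunits of casein kinase 2, which also serve other processes, were called higher for 1 of 4 and lower for 1, with a median of -0.03.

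The Mpp10 complex, which helps U3 pair with the precursor, had all 3 genes lower, with MPP10 at -1.63 ± 0.16 and IMP4 at -2.90 ± 0.20. BMS1, a GTPase, fell by 0.77 ± 0.17 (-0.50 without WT 30 °C replicate 2), and its partner RCL1, an enzyme-like protein tied to cleavage of the precursor, fell by 1.86 ± 0.14. Among the 13 single factors 12 fell. SOF1, a WD-repeat protein, went from 131 and 187 CPM to 15.7 and 15.6 CPM, a change of -3.35 ± 0.21. UTP20, a very large helical-repeat protein with a coding length of 7482 bases, fell by 1.55 ± 0.14. KRR1, which encodes a KH-domain RNA-binding protein, was not called (100 and 112 CPM at 30 °C, 117 and 125 CPM at 40 °C, 0.19 ± 0.11). In WT pellets KRR1 was at 59.0 and 67.3 CPM at 30 °C and 31.2 and 34.5 CPM at 40 °C. Its WT soluble levels were 239 and 278 CPM at 30 °C and 200 and 214 CPM at 40 °C.

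All 7 helicases were lower at 40 °C, from DHR2 at -3.86 ± 0.21 to ECM16 (also Dhr1, which unwinds U3 from the precursor) at -0.48 ± 0.20. DHR2 went from 87 and 122 CPM to 8.09 and 6.37 CPM, with no overlap. ECM16 was not called without WT 30 °C replicate 2 (-0.12) or WT 40 °C replicate 1 (-0.38), nor in a model of the compared groups alone (-0.53), and was -0.81 without WT 30 °C replicate 1. All 5 box C/D and U3 genes were lower. NOP1, the methyltransferase fibrillarin, fell from 134 and 133 CPM to 15.9 and 19.7 CPM, by 2.90 ± 0.17 on the log2 scale. SNU13, which also serves in the U4 particle of the spliceosome, changed least of them, at -0.81 ± 0.14.

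In WT the relative level of most of these transcripts was higher at 42 °C than at 40 °C. Against 30 °C, 25 members were called lower and 4 higher with a median of -0.48, where 61.4% of all genes tested were called, 28.1% lower and 33.3% higher. Against 40 °C, 44 members were higher and 0 lower with a median of 1.93, where 46.9% of genes were called, 24.6% higher. All 46 members were higher in both 42 °C libraries than in either 40 °C library, as were 37.5% of all genes. For 28 of them the 42 °C libraries lay between those of the other temperatures without overlap, as for 15.2% of all genes. The median of -0.48 against 30 °C was -0.72 without WT 30 °C replicate 1 and -0.28 without replicate 2. Of the log2 fall at 40 °C, 79.2% was absent at 42 °C in the median over the 43 WT members whose log2 change at 40 °C was below -0.5. The share ran from 37.1% to 222% among these members and was not computed for all genes.

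The lowest values at 42 °C against 30 °C in WT were UTP15 at -1.51 ± 0.12, SOF1 at -1.37 ± 0.19 and NSR1 at -1.31 ± 0.28. UTP10 (397 and 381 CPM at 42 °C), NOP1 and UTP20 were also lower, by 1.15 ± 0.13, 1.05 ± 0.15 and 0.87 ± 0.14. MPP10 was called at -0.58 ± 0.15 but not without WT 30 °C replicate 2 (-0.33) or WT 42 °C replicate 1 (-0.47). The 4 members above their 30 °C level were RRP7 (124 and 135 CPM at 42 °C, 1.23 ± 0.16), KRR1 (198 and 192 CPM, 0.88 ± 0.11), the helicase FAL1 (55.8 and 40.9 CPM, 0.88 ± 0.20, or 0.58 without WT 30 °C replicate 1) and UTP11 (93.1 and 85.9 CPM, 0.44 ± 0.15). UTP11 was chosen after its value was seen, to complete the 4, and was not called without WT 30 °C replicate 1 (0.19), WT 42 °C replicate 1 (0.38) or replicate 2 (0.45), nor by DESeq2 (0.38). For RRP7 and KRR1 no 42 °C library of total RNA overlapped the 30 °C libraries. The WT fractions did not show these 2 rises. RRP7 pellets were at 77.3 and 81.5 CPM at 30 °C and 65.6 and 75.5 CPM at 42 °C, and KRR1 pellets at 59.0 and 67.3 CPM and 49.2 and 46.8 CPM. In soluble RNA RRP7 had 179 and 173 CPM at 30 °C and 180 and 75.8 CPM at 42 °C, and KRR1 239 and 278 CPM and 335 and 201 CPM. Against 40 °C, NSR1 rose by 4.44 ± 0.36, UTP13 by 3.07 ± 0.23 and UTP6, both UtpB subunits, by 2.92 ± 0.37. BMS1 (0.29 ± 0.17) and ECM16 (0.45 ± 0.20) were the members not called between the hot temperatures, although ECM16 was called in a model of those groups alone (0.45).

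**Figure D3:**
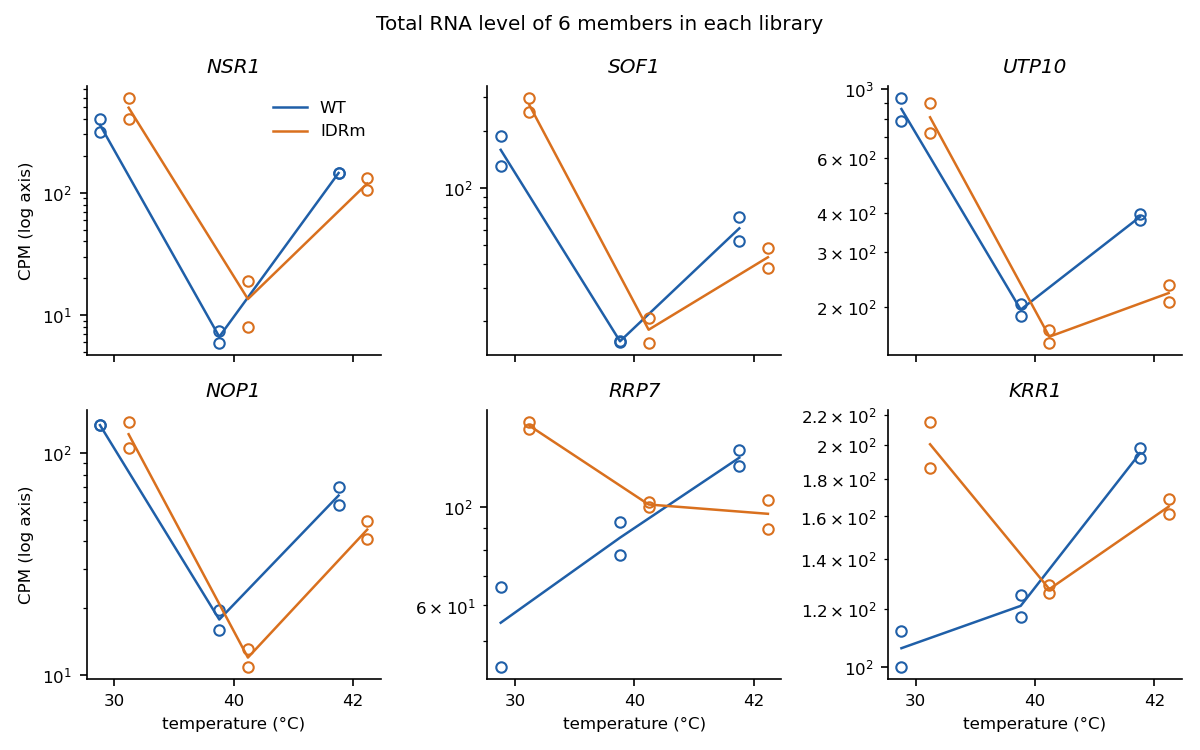
Total RNA level in CPM (log axis) of NSR1, SOF1, UTP10, NOP1, RRP7 and KRR1 at 30, 40 and 42 °C, with each library as a circle, WT in blue and IDRm in orange, and lines through the means of 2 libraries. NSR1, SOF1, UTP10 and NOP1 are lowest at 40 °C in both strains, while RRP7 and KRR1 climb with temperature in WT and are highest at 30 °C in IDRm.

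In IDRm cells every member was called lower at both hot temperatures. At 40 °C the count was 46 of 46 with a median of -2.74, where 70.4% of all genes tested were called, 32.6% lower. At 42 °C it was 46 of 46 with a median of -1.37, where 64.8% were called, 31% lower. The share of the counts was 1.63% and 1.36% at 30 °C, 0.238% and 0.259% at 40 °C, and 0.522% and 0.550% at 42 °C. Of the falls at 42 °C, 38 were at least 2-fold in IDRm, against 8 in WT. Each count is against the 30 °C libraries of its strain. There the members were higher in IDRm by a median log2 difference of 0.46, which depended on single libraries. The share of all genes with such falls was not counted. Since every member was called lower in IDRm, the 44 lower in WT at 40 °C and the 25 at 42 °C were necessarily among them.

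At 40 °C NSR1 in IDRm went from 593 and 400 CPM to 7.99 and 19.0 CPM, a change of -5.20 ± 0.34. DHR2 and the UtpA gene UTP9 followed at -4.45 ± 0.21 and -4.26 ± 0.20. SOF1, NOP1, UTP10, MPP10 and UTP20 fell by 3.93 ± 0.21, 3.33 ± 0.17, 2.34 ± 0.14, 2.04 ± 0.16 and 1.72 ± 0.15. The smallest falls were those of RRP7 (156 and 150 CPM to 100 and 103 CPM, -0.59 ± 0.15) and KRR1 (215 and 186 CPM to 126 and 129 CPM, -0.65 ± 0.11). Both values were below 0 where the WT values were above it, and no IDRm library at 40 °C reached those at 30 °C.

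At 42 °C SOF1 was the lowest in IDRm against 30 °C, at -2.66 ± 0.20 (297 and 250 CPM to 38.2 and 48.4 CPM), followed by DHR2 at -2.19 ± 0.18 and UTP9 at -2.18 ± 0.18. NSR1, UTP10, UTP20, NOP1 and MPP10 were at -2.06 ± 0.29, -1.88 ± 0.14, -1.54 ± 0.14, -1.42 ± 0.15 and -1.15 ± 0.16. KRR1 had the smallest value, -0.28 ± 0.11, and was not called without IDRm 30 °C replicate 1 (-0.20), IDRm 42 °C replicate 1 (-0.32) or replicate 2 (-0.27). Between 40 and 42 °C 40 members rose and 0 fell, with a median of 1.41, where 42.2% of genes were called, 21.2% higher. NSR1 rose most (3.13 ± 0.33), then UTP13 (2.41 ± 0.23) and UTP18 (2.30 ± 0.22), both of UtpB. RRP7 (-0.07 ± 0.16), BMS1 (-0.12 ± 0.17), NAN1 (0.07 ± 0.18), ECM16 (0.12 ± 0.20) and UTP20 (0.18 ± 0.14) were among the 6 not called. UTP10 was called at 0.46 ± 0.13, but not without IDRm 40 °C replicate 1 (0.41) or IDRm 42 °C replicate 2 (0.39). The median share of the 40 °C fall that was absent at 42 °C was 51.8% over the 46 members in IDRm, with a range of -11.9% to 76%.

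The median difference between the strains was above 0 at 30 °C and below 0 at 42 °C. At 30 °C 17 members were called higher in IDRm and 0 lower, with a median of 0.46, where 7.93% of all genes were higher and 4.99% lower. At 40 °C 1 was higher and 0 lower with a median of -0.01, where 7.03% were higher and 4.11% lower. At 42 °C 0 were higher and 24 lower with a median of -0.50, where 23.4% were called, 11% lower. In single libraries at 42 °C, 43 of the 46 members were lower in both IDRm libraries than in either WT library and 0 higher, where 30.3% of all genes were lower and 31.8% higher in this way. At 30 °C 29 were higher in both and 2 lower, where 28.9% of all genes were higher and 26.6% lower. At 40 °C 10 were higher and 12 lower, where 36.1% and 28.7% of all genes were.

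The count at 30 °C depended on single libraries. It was 5 without WT replicate 1, 30 without WT replicate 2, 3 without IDRm replicate 1 and 2 in a model of those groups alone. The median of 0.46 was 0.24 without WT replicate 1 and 0.70 without WT replicate 2. WT replicate 1 was the lower of its pair, with a median log2 difference of -0.46 over the members, and IDRm replicate 1 was the higher of its pair, at 0.31. RRP7 had the largest difference, 1.48 ± 0.16 (edgeR adjusted p = 3.77e-05). Its IDRm values of 156 and 150 CPM lay above both WT values of 43.6 and 66.1 CPM. The fractions at 30 °C did not show this gap. RRP7 was at 84.2 and 81.9 CPM in IDRm pellets against 77.3 and 81.5 CPM in WT pellets. In soluble RNA it was at 188 and 117 CPM in IDRm and 179 and 173 CPM in WT. NOP14, which works with NOC4 and EMG1 in the particle, was at 56.7 and 139 CPM in WT and 291 and 203 CPM in IDRm, a difference of 1.33 ± 0.34 that was called. It was 0.80 without WT replicate 1 and 2.11 without WT replicate 2, and it was not called without IDRm replicate 1 (1.03) or in a model of those groups alone (1.32). UTP14, the activator of the helicase Dhr1, showed 45.6 and 125 CPM in WT and 199 and 142 CPM in IDRm, and its difference of 0.99 ± 0.37 was not called. Without WT replicate 2 it was 1.89. In soluble RNA at 30 °C NOP14 was at 303 and 349 CPM in WT and 323 and 206 CPM in IDRm. UTP14 was there at 250 and 257 CPM in WT and 249 and 124 CPM in IDRm. In pellets both IDRm libraries were higher, with NOP14 at 156 and 201 CPM in WT and 238 and 215 CPM in IDRm. UTP14 pellets had 83.4 and 99.1 CPM in WT and 133 and 111 CPM in IDRm.

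At 40 °C the member called was the helicase gene DBP8 (17.2 and 20.1 CPM in WT, 26.0 and 31.9 CPM in IDRm, 0.63 ± 0.16). It was not called without WT replicate 1 (0.52), WT replicate 2 (0.74) or IDRm replicate 2 (0.47), and at an unadjusted p under 0.05 there were 10 members, 5 of them higher. NSR1 was 5.88 and 7.39 CPM in WT and 7.99 and 19.0 CPM in IDRm. Its difference of 1.02 ± 0.40 was not called, and without IDRm replicate 1 it was called at 1.50. The count was 0 without WT replicate 1, 0 without WT replicate 2, 3 without IDRm replicate 1 and 0 without IDRm replicate 2.

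At 42 °C 6 of the 7 UtpA genes were lower in IDRm, with a median of -0.80, as were 3 of 6 UtpB genes, 2 of 7 helicases and 3 of 5 box C/D and U3 genes. UTP14 was at 131 and 106 CPM in WT and 37.1 and 50.0 CPM in IDRm, a difference of -1.44 ± 0.38 (edgeR adjusted p = 0.0232). UTP10 was at 397 and 381 CPM in WT and 208 and 235 CPM in IDRm, -0.82 ± 0.13 (edgeR adjusted p = 0.000739). UTP6 and UTP8 followed UTP14 at -1.02 ± 0.31 and -0.98 ± 0.30, and NOP58, the partner of NOP56 in box C/D particles, was at -0.74 ± 0.20. For UTP10 and UTP14 both IDRm libraries lay below both WT libraries. SOF1 was not called at -0.51 ± 0.20. The number of members lower was 8 without WT replicate 1, 5 without IDRm replicate 1 and 9 without IDRm replicate 2. UTP14, UTP6 and UTP8 were not called in any of those 3 fits (UTP14 at -1.28, -1.24 and -1.67, UTP6 at -0.59, -1.06 and -0.99, UTP8 at -0.49, -1.03 and -0.94). NOP58 was not called without WT replicate 1 (-0.66) or IDRm replicate 1 (-0.59).

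The heat changes of the strains were compared as the difference of their fold changes. This test shares the 30 °C libraries with the comparisons above, so a strain difference at 30 °C enters it. The median strain difference over members was 0.46 at 30 °C and -0.50 at 42 °C. For 42 against 30 °C, 34 members had a lower fold change in IDRm and 0 a higher one, with a median difference of -0.90, where 5.22% of all genes tested were higher and 6.55% lower. UTP14 (-2.43 ± 0.53), NOP14 (-2.26 ± 0.48) and RRP7 (-1.90 ± 0.22) differed most. EMG1 (-0.11 ± 0.16), a methyltransferase of 18S ribosomal RNA, SNU13 (-0.30 ± 0.20) and NOP1 (-0.37 ± 0.21) were closest to 0 and not called. The count was 18 without WT 30 °C replicate 1, 19 without WT 42 °C replicate 1, 10 without IDRm 30 °C replicate 1, 11 without IDRm 42 °C replicate 1, 19 without IDRm 42 °C replicate 2 and 21 in a model of the compared groups alone. UTP14 was not called without WT 42 °C replicate 1 (-2.27), IDRm 30 °C replicate 1 (-2.16) or IDRm 42 °C replicate 1 (-2.23), and NOP14 not without IDRm 30 °C replicate 1 (-1.96) or IDRm 42 °C replicate 1 (-2.10).

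For 40 against 30 °C, 3 members had a lower fold change in IDRm and 0 a higher one, with a median difference of -0.47 (-0.30 without WT 30 °C replicate 1 and -0.72 without replicate 2), where 1.64% of genes were called, 0.64% lower. They were RRP7 (-1.23 ± 0.22), UTP11 (-0.97 ± 0.23) and KRR1 (-0.85 ± 0.16). At 30 °C these 3 differed between the strains by 1.48, 0.98 and 0.92, all called. At 40 °C they differed by 0.25, 0.01 and 0.07, none called. UTP11 and KRR1 were chosen after their fold-change differences were seen, to complete the 3. None of the 3 was called without WT 40 °C replicate 2 (-1.08, -0.78 and -0.78), IDRm 30 °C replicate 1 (-1.21, -0.85 and -0.75), IDRm 40 °C replicate 1 (-1.19, -0.82 and -0.81) or IDRm 40 °C replicate 2 (-1.22, -1.10 and -0.84), and UTP11 also not without WT 30 °C replicate 1 (-0.74), WT 40 °C replicate 1 (-1.09) or IDRm 30 °C replicate 2 (-1.10). Without WT 30 °C replicate 2 the count was 20.

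In the cell fractions, these messages lay toward the soluble side at 30 °C. A log2 ratio of pellet over soluble level above 0 means a larger share of pellet RNA than of soluble RNA, and does not give the molecules in each. In WT at 30 °C, 28 members were lower in the pellet and 3 higher, with a median ratio of -0.85, where 68.2% of the 6141 genes tested were called, 34.8% lower and 33.4% higher. In IDRm the counts were 24 and 5 with a median of -0.47, where 68.2% of genes were called, 33.7% lower and 34.5% higher. The box C/D and U3 genes were lower in the pellet in 5 of 5 cases in both strains. KRR1 was the most soluble, at 59.0 and 67.3 CPM in the pellet and 239 and 278 CPM in soluble RNA of WT, a ratio of -2.03 ± 0.19. UTP11, which encodes a small processome subunit, followed at -1.79 ± 0.29, and IMP4 and RCL1 were at -1.73 ± 0.17 and -1.21 ± 0.15. The 3 members higher in the pellet were UTP10 (1308 and 1475 CPM against 741 and 836 CPM, 0.82 ± 0.13), UTP20 (0.81 ± 0.15) and UTP22 (0.30 ± 0.12). UTP22 was not called when any of the 4 libraries was left out (0.28 to 0.33) nor with a trend on GC content removed (0.24).

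The split was more even at 40 °C. In WT 15 members were lower in the pellet and 9 higher, with a median ratio of -0.03, where 73.9% of genes were called, 36.1% lower and 37.9% higher. In IDRm 12 were lower and 12 higher, with a median of -0.08, where 71.8% were called, 35.2% lower and 36.6% higher. At 42 °C 25 were lower and 6 higher in WT, with a median of -0.59, where 79.1% were called, 36.7% lower and 42.4% higher. In IDRm the counts were 20 and 13 with a median of -0.25, where 78.7% were called, 37.4% lower and 41.3% higher. KRR1 kept the lowest ratio of those named, at -2.65 ± 0.20 in WT at 40 °C and -2.84 ± 0.20 in IDRm at 42 °C, and UTP10 the highest, at 2.66 ± 0.14 in WT and 2.85 ± 0.14 in IDRm at 42 °C.

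The ratios followed coding length. Across the 46 members the Pearson correlation of log2 coding length with the WT pellet-to-soluble ratio was 0.71 at 30 °C, 0.30 at 40 °C and 0.69 at 42 °C, and in IDRm it was 0.79, 0.45 and 0.69. Across 5787 genes with a coding length it was 0.43, 0.45 and 0.54 in WT and 0.51, 0.53 and 0.62 in IDRm. These are descriptions across genes that share the same libraries. The members lay mostly below other genes of like length, taken within 0.25 of the log2 coding length. In WT 2, 12 and 5 of the 46 exceeded the median of such genes at 30, 40 and 42 °C, and in IDRm 2, 16 and 12.

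**Figure D4:**
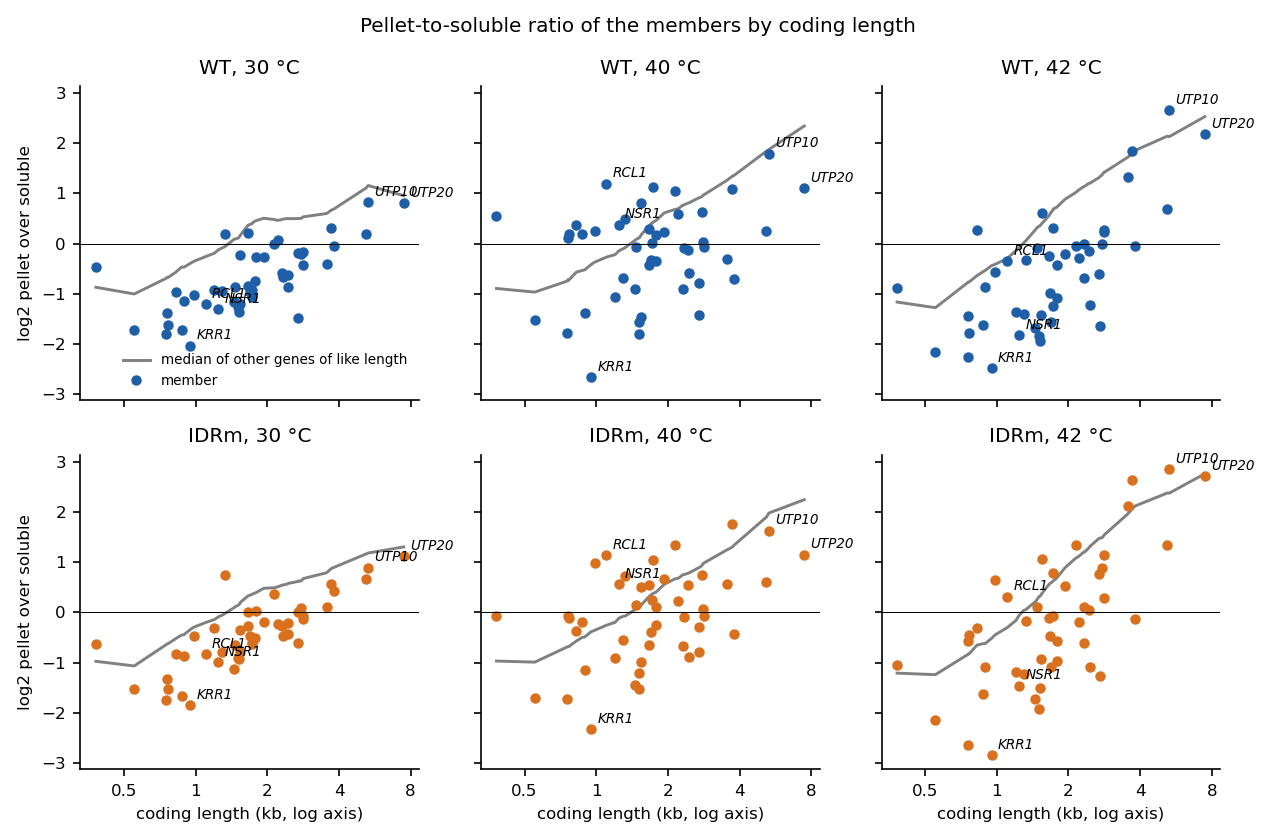
Log2 ratio of pellet over soluble level (y axis) against coding length in kb (log axis) for the 46 members in each strain and temperature, with a grey line for the median of other genes of like length. Most members lie under the grey line at 30 °C, more of them reach it at 40 °C, and UTP10 and UTP20 are at the top of the 42 °C panels.

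At 40 °C the ratio of part of the members rose in WT. It rose for 17 members and fell for 1, with a median change of 0.41, where 13% of genes rose and 7.98% fell and the median over all genes was 0.03. Median-of-ratios scaling, which moved all log2 ratio changes down by 0.16 in WT and 0.15 in IDRm at 40 °C and by 0.24 and 0.17 at 42 °C, gave 15 rises and 3 falls. Of the 7 UtpA genes 5 rose and 1 fell, of the 5 box C/D and U3 genes 3 rose, and of the 7 helicases 0 were called. RCL1 moved most, by 2.40 ± 0.22 (edgeR adjusted p = 2.1e-06). Its WT pellet levels were 58.6 and 68.5 CPM at 30 °C and 54.2 and 58.1 CPM at 40 °C, while its soluble levels were 125 and 169 CPM at 30 °C and 24.3 and 24.8 CPM at 40 °C. The pellet values at both temperatures lay close together, and the soluble values separated widely. UTP9, IMP4, UTP23, a PIN-domain factor, and NSR1 followed at 2.06 ± 0.30, 1.92 ± 0.26, 1.82 ± 0.34 and 1.68 ± 0.38. NOP1 and UTP10 rose by 1.28 ± 0.22 and 0.97 ± 0.19.

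NSR1 was at a low level in both fractions at 40 °C. Its soluble RNA in WT fell from 361 and 474 CPM to 6.88 and 9.11 CPM, and its pellet RNA from 158 and 180 CPM to 9.36 and 11.3 CPM. NAN1 was the member whose ratio fell (-0.60 ± 0.21). It was not called in 5 of the 8 fits that left out 1 of its libraries, with values from -0.62 to -0.47 in those 5 (WT 30 °C pellet replicate 2 and soluble replicate 1, WT 40 °C pellet replicates 1 and 2 and soluble replicate 2).

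In IDRm the ratio rose for 14 members and fell for 1 at 40 °C, with a median of 0.25, where 13% of genes rose and 8.89% fell. Of the 17 WT and 14 IDRm risers 13 were shared, which is 13 of 17 and 13 of 14. RCL1 rose by 1.97 ± 0.22, UTP9 by 1.66 ± 0.30, NSR1 by 1.55 ± 0.40, IMP4 by 1.47 ± 0.26, NOP1 by 1.44 ± 0.22, UTP23 by 1.41 ± 0.33 and UTP10 by 0.73 ± 0.19. NSR1 was not called without IDRm 40 °C soluble replicate 2 (1.16), UTP23 not without IDRm 40 °C pellet replicate 1 (1.03), and UTP10 not without IDRm 30 °C pellet replicate 2 (0.63) or soluble replicate 1 (0.59). The helicase gene RRP3 was the one whose ratio fell (-0.62 ± 0.21), and it was called in 1 of its 8 fits with a library left out.

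At 42 °C the highest ratio changes were those of long messages. In WT the ratio rose for 11 and fell for 4 members against 30 °C with a median change of -0.07, where 23.6% of genes rose and 14.7% fell, so the share of members was near that of all genes. In IDRm it rose for 19 and fell for 7 with a median of 0.04, where 23.5% rose and 13.7% fell. These splits depended on the scaling: with median-of-ratios scaling 8 rose and 12 fell in WT, and 13 rose and 10 fell in IDRm, while each member named here kept its call. UTP10 rose by 1.84 ± 0.19 in WT and 1.96 ± 0.19 in IDRm, BMS1 by 1.74 ± 0.40 and 2.02 ± 0.40, UTP22 by 1.53 ± 0.18 and 2.06 ± 0.18, and UTP20 by 1.37 ± 0.22 and 1.60 ± 0.22. In WT soluble RNA UTP10 was at 123 and 150 CPM at 42 °C against 741 and 836 CPM at 30 °C, and in pellets at 896 and 829 CPM against 1308 and 1475 CPM. RCL1 kept a smaller rise of 0.85 ± 0.21 in WT and 1.15 ± 0.21 in IDRm. UTP18 fell by 0.81 ± 0.20 in WT and 0.99 ± 0.20 in IDRm. The UtpA genes rose in 4 of 7 cases in WT and 7 of 7 in IDRm.

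Coding length was also set beside the ratio change. The 6 members with a coding length of at least 3000 bases (UTP10, UTP20, RRP5, BMS1, UTP22 and ECM16) had a median ratio change in WT of 0.20 at 40 °C and 1.45 at 42 °C. The 10 members of at most 1000 bases had medians of 1.14 and -0.10. In IDRm the long members had 0.25 and 1.78 and the short ones 0.51 and -0.09. These limits were set after the values were seen, and no test was made. Of the long members ECM16 was at 0.01 ± 0.37 in WT and -0.55 ± 0.37 in IDRm at 42 °C, and neither was called. The median ratio of other genes of like length was also higher at 42 °C than at 30 °C. In WT it was 0.95 at 30 °C and 2.53 at 42 °C for the length of UTP20, and 1.16 and 2.13 for UTP10. For UTP22 it was 0.67 and 1.80, and for BMS1 0.60 and 1.72. Across the 46 members the total RNA change and the ratio change at 40 °C had a Pearson correlation of -0.51 in WT and -0.46 in IDRm, and across 6077 genes of -0.37 and -0.52. Total and fraction libraries are separate libraries that can share cultures.

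**Figure D5:**
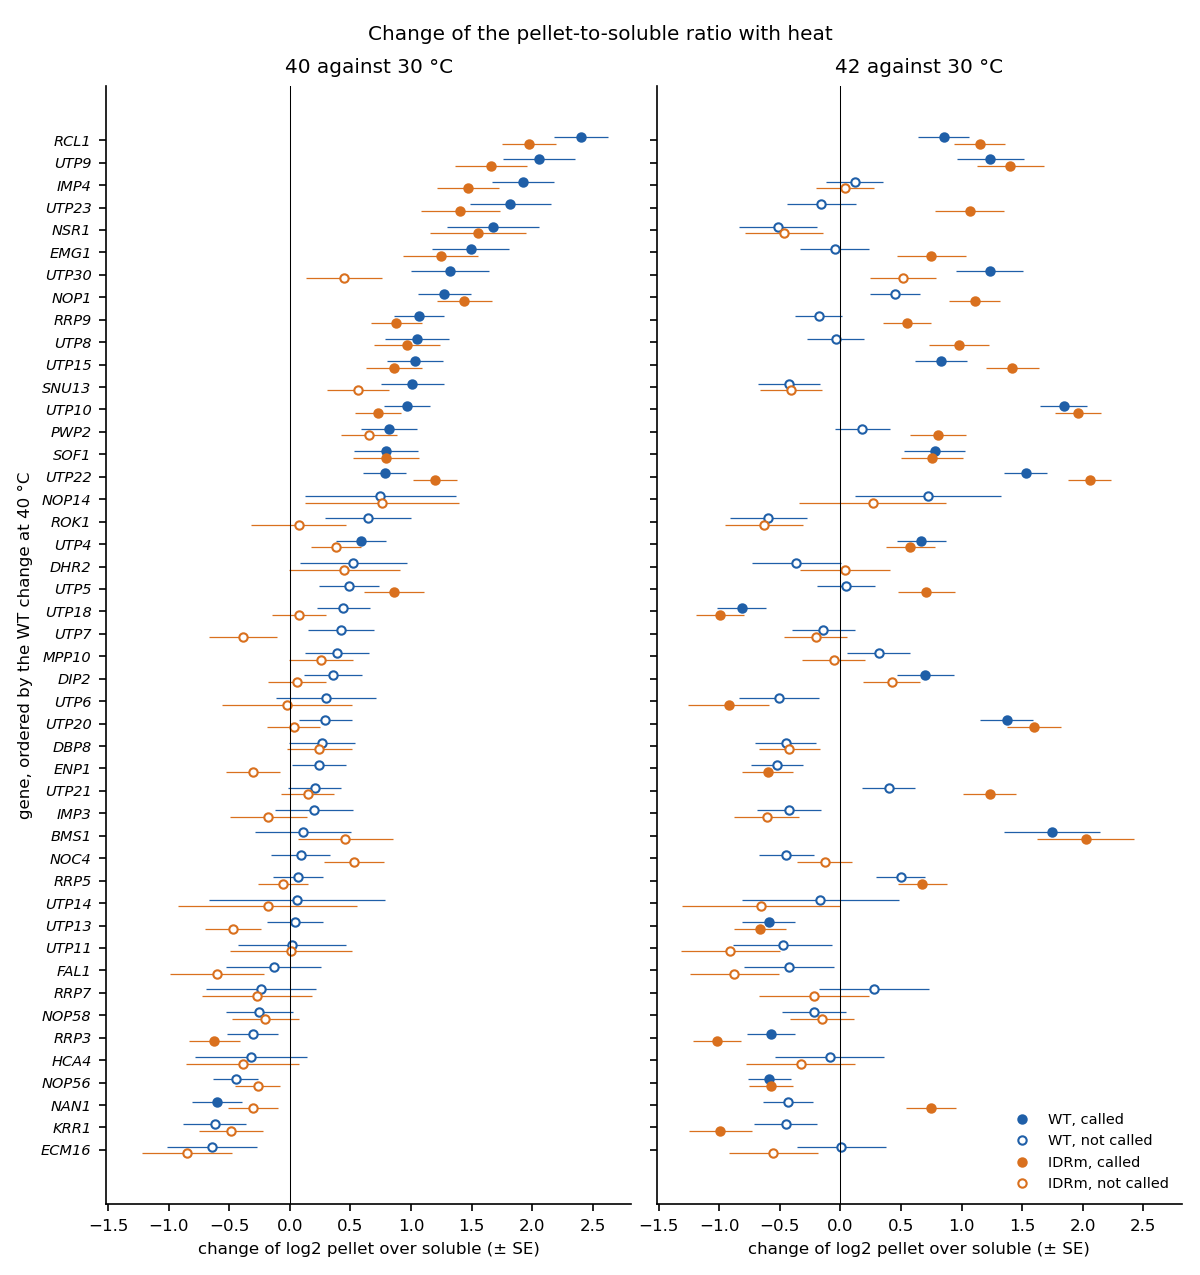
Change of the log2 pellet-to-soluble ratio at 40 °C (left) and 42 °C (right) against 30 °C for each member, ordered by the WT value at 40 °C, with bars for the standard error, filled points for called changes and open points for the others, WT in blue and IDRm in orange. RCL1, UTP9, IMP4, UTP23 and NSR1 head the 40 °C panel, and UTP10, BMS1, UTP22 and UTP20 reach the largest values at 42 °C.

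The strains were also compared in the ratio itself. At 30 °C and at 40 °C the edgeR test called 0 members, where 1.09% and 1.11% of all genes were called. At an unadjusted p under 0.05 there were 5 members at 30 °C and 7 at 40 °C, and DESeq2 called 0 and 1. At 42 °C 8 members had a higher ratio in IDRm and 0 a lower one, with a median difference of 0.19 (0.52 without IDRm soluble replicate 2), where 4.66% of genes were higher. They were UTP8 (1.38 ± 0.25), NAN1 (1.37 ± 0.21), UTP23 (1.32 ± 0.29), NOP1 (1.21 ± 0.21), RRP9 (1.15 ± 0.20), which encodes a U3-specific protein, UTP21 (0.92 ± 0.22), PWP2 (0.90 ± 0.23) and UTP22 (0.79 ± 0.18). RRP9 and PWP2 were chosen after their values were seen, to complete the 8.

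For NAN1 the WT levels at 42 °C were 147 and 148 CPM in the pellet and 245 and 204 CPM in soluble RNA, and the IDRm levels were 140 and 168 CPM and 82.7 and 99.2 CPM. The pellet values of the strains overlapped, and the soluble values did not. NOP1 had 88.8 and 88.2 CPM in WT pellets, 132 and 131 CPM in WT soluble RNA, 73.2 and 79.1 CPM in IDRm pellets and 52.3 and 45.2 CPM in IDRm soluble RNA. Again the soluble values lay further apart than the pellet values. The WT soluble libraries at 42 °C were the replicate pair with the lowest correlation of the series (0.970), and their part in this difference was not tested. The count was 5 without WT pellet replicate 1, 5 without WT pellet replicate 2, 14 without WT soluble replicate 1 (12 higher and 2 lower) and 0 in a model of the compared groups alone. Lost without WT pellet replicate 1 were UTP23 (1.24), UTP21 (0.92) and PWP2 (0.86), and without WT pellet replicate 2 UTP21 (0.91), PWP2 (0.93) and UTP22 (0.77). PWP2 was also lost without IDRm pellet replicate 2 (0.79) or WT soluble replicate 2 (0.71).

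Other genes of ribosome assembly were set beside the members. Of 42 assembly factors of the 60S subunit, 39 were called lower in WT at 40 °C and 0 higher with a median of -2.25, and 42 of 42 in IDRm with a median of -3.01. Of 22 further small-subunit processome genes, 17 were lower and 1 higher in WT at 40 °C with a median of -1.02. At 42 °C against 30 °C those 22 had 11 higher and 0 lower in WT with a median of 0.51. In IDRm they had 0 higher and 18 lower with a median of -1.16. These lists also differed between the strains. The change from 30 to 42 °C was lower in IDRm for 34 of the 42 60S factors (median difference -1.06) and 18 of the 22 (-1.52). In total RNA at 42 °C, 24 of the 42 (median -0.57) and 12 of the 22 (-0.60) were lower in IDRm. In neither comparison was any of them called higher. All 4 proteins of the box H/ACA particles, which guide pseudouridylation, fell in both strains at 40 °C, with medians of -2.71 and -3.19. The 7 chaperones of box C/D assembly had 5 lower in WT and 6 in IDRm, with smaller medians of -0.58 and -0.89.

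Likeness of profile was measured over the 18 group means as the root mean square distance of centred log2 CPM from the median profile of the members. The non-member genes nearest to it were TRM1 (0.16), a tRNA methyltransferase, TRM2 (0.19), also a tRNA methyltransferase, MTR4 (0.20), the helicase of the nuclear exosome pathway, GCD10 (0.20), a subunit of a tRNA methyltransferase, and DBP10 (0.22), a helicase of 60S assembly. The median distance was 0.51 among the members and 1.28 over 6077 genes. RRP9 was the closest member at 0.23, and KRR1 and NSR1 were the farthest at 1.22 and 1.22.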

How the data were processed

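RNA was sequenced in 36 libraries after depletion of ribosomal RNA, per the labels' protocols. The submitters' processing notes name bcl2fastq 2.19.1, STAR 2.5.2b and the genome build R64. The deposited table holds whole-number counts for each gene and library, not normalised. Which tool counted them, whether by strand and on which annotation is not given in the sources used here, so reads of a gene and of an antisense transcript cannot be told apart. No other coding gene of the R64 RefSeq annotation overlaps the coding span of a member.

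Counts were tested with edgeR 4.0.16 (limma 3.58.1, R 4.3.3), with TMM scaling, filterByExpr at a minimum count of 10 and the robust quasi-likelihood test, 1 term per group, and Benjamini-Hochberg adjustment over all genes of a contrast at 0.05. The 12 total libraries (6 residual degrees of freedom, 11 contrasts) and the 24 fraction libraries (12 residual degrees of freedom, 13 contrasts) were fitted separately. The steps were tested on simulated counts in which a small set of genes, balanced between rises and falls, changed in a single group. In total RNA of WT at 40 °C most genes tested were called. The simulation therefore does not test the scaling under such broad changes. Recovery is the share of the log2 fall at 40 °C that is absent at 42 °C. Totals ran from 4934241 to 13730247 counts. Coding lengths and promoter windows were taken from R64 RefSeq.

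Members and lists were chosen with earlier results of these data known. Named in a contrast were the members with the largest and smallest absolute change of each role, the 3 highest and 3 lowest, and NSR1, NOP1, SOF1, UTP10, UTP20 and MPP10. Alternatives were median-of-ratios scaling, DESeq2 1.42.0, no filter, the compared groups alone, a replicate block, each library left out, and, added after seeing the data, removal of a GC trend. That a replicate number stands for 1 culture was taken from the protocols and is not stated.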

Additional observations from a re-analysis of the deposited data

Results flagged for a closer look

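The results below stand here because the effect differed between the strains in a test of the difference itself, or because the pellet-to-soluble ratio differed between strains at the same temperature. All are log2 differences of IDRm minus WT from the edgeR quasi-likelihood test, with 2 libraries per group.

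For the change from 30 to 40 °C in total RNA, 3 members differed: RRP7 by -1.23, UTP11 by -0.97 and KRR1 by -0.85. Of all genes tested 0.64% were lower in this test. With single libraries left out the number of members ran from 0 to 20, and none of the 3 was called in 4 of the 8 fits. RRP7 was called higher in WT and lower in IDRm, from 43.6 and 66.1 CPM in WT and 156 and 150 CPM in IDRm at 30 °C. At 40 °C it was at 78.1 and 92.7 CPM in WT and 100 and 103 CPM in IDRm, a difference that was not called. In both WT fractions RRP7 was lower at 40 °C than at 30 °C.

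For the change from 30 to 42 °C, 34 members differed, all with the lower value in IDRm, and the largest were UTP14 at -2.43, NOP14 at -2.26 and RRP7 at -1.90. Of all genes tested 5.22% were higher and 6.55% lower. The number of members ran from 10 to 41 with single libraries left out and was 21 in a model of the compared groups alone. Both WT 30 °C values of UTP14 (45.6 and 125 CPM) and NOP14 (56.7 and 139 CPM) lay below the IDRm values at that temperature, with wide spread between the WT replicates.

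For the pellet-to-soluble ratio at 42 °C, 8 members differed, all higher in IDRm: UTP8 by 1.38, NAN1 by 1.37, UTP23 by 1.32, NOP1 by 1.21, RRP9 by 1.15, UTP21 by 0.92, PWP2 by 0.90 and UTP22 by 0.79. Of all genes tested 4.66% were higher. The number of members ran from 5 to 14 with single libraries left out and was 0 in a model of the compared groups alone.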

How the results depend on the processing

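The heat changes in total RNA kept their direction and stayed within 1.5 times their number of called members under median-of-ratios scaling, DESeq2, no filter, the compared groups alone, the culture block and the GC trend removal. In a model of the compared groups alone, which has fewer degrees of freedom, the number of members called was 2 for the strain difference at 30 °C, 7 at 40 °C, 1 for the strain difference of the 40 °C effect, 21 for that of the 42 °C effect, 9 for the WT ratio change at 42 °C, 6 for the strain difference of the ratio at 40 °C and 0 at 42 °C. DESeq2 called 2 members for the strain difference at 40 °C and 1 for that of the ratio at 40 °C. With the GC trend removed the strain difference of the ratio at 42 °C had 13 members. For the ratio at 42 against 30 °C it gave 11 rises and 9 falls in WT, and 17 and 10 in IDRm. The cause was not tested.

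With single libraries left out, the median over members ran through 0 for the ratio change at 42 °C (-0.16 to 0.16 in WT, -0.11 to 0.33 in IDRm), for pellet against soluble RNA at 40 °C (-0.15 to 0.15 in WT, -0.17 to 0.02 in IDRm) and for the strain difference at 40 °C (-0.13 to 0.10 in total RNA, -0.03 to 0.22 in the ratio). It moved by over 1.5 times for the ratio change at 40 °C in WT (0.26 without WT 30 °C soluble replicate 2) and IDRm (0.12 without IDRm 30 °C soluble replicate 1, 0.43 without IDRm 40 °C soluble replicate 1), and for pellet against soluble RNA in IDRm at 30 °C (-0.29 without soluble replicate 1) and 42 °C (-0.43 without pellet replicate 2, -0.17 without pellet replicate 1). The number of members called ran from 42 to 45 (WT, 40 against 30 °C), 24 to 32 (WT, 42 against 30 °C), 41 to 44 (WT, 42 against 40 °C), 42 to 46 (IDRm, 42 against 30 °C) and 31 to 37 (IDRm, 42 against 40 °C), and was 46 in all 4 fits for IDRm at 40 against 30 °C. The strain difference ran from 3 to 30 at 30 °C, 0 to 3 at 40 °C and 5 to 18 at 42 °C, the strain difference of the heat effect from 0 to 20 at 40 °C and 10 to 41 at 42 °C, and that of the ratio at 42 °C from 5 to 14. Near 0, the IDRm change from 40 to 42 °C turned in single fits for RRP7, which ran from -0.17 (without IDRm 42 °C replicate 2) to 0.033 (without replicate 1), and for ECM16, which ran from -0.016 (without IDRm 40 °C replicate 2) to 0.28 (without replicate 1).

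The replicate numbers were not used as pairs, since the labels do not tie a number to a culture and the correlation of replicate differences between groups of 1 strain, from -0.57 to 0.74, was not above 0.1 throughout. That numbers share a culture is not excluded: at 30 °C the member median of replicate 1 minus 2 was -0.46, -0.22 and -0.21 in WT total, pellet and soluble RNA, and 0.31, 0.13 and 0.17 in IDRm. With a replicate block for the culture, no number of members called moved by over 1.5 times, and among named members KRR1 (IDRm, 42 against 30 °C, -0.28), UTP6 (-1.05) and UTP8 (-0.98, both strain difference at 42 °C) were no longer called, while ECM16 (WT, 42 against 40 °C, 0.46) and SOF1 (strain difference at 42 °C, -0.50) were. With a replicate block for the harvest, the strain difference of the ratio had 1 member at 40 °C and 13 at 42 °C.

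The lowest member count in a library was 10, so the least abundant members at 40 °C rest on few reads. With 2 libraries per group, a difference that was not called is not shown to be absent. Transcripts per cell were not measured.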
